A study of Mus musculus with 17 samples.

Results

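The expression of 10 genes that mark the early stages of the oligodendrocyte lineage was followed in the cortex of mice with altered Hnrnph2, which encodes an RNA-binding protein on the X chromosome. The genes were chosen by name: Pdgfra, Cspg4, Olig1, Olig2, Sox10, Gpr17, Bcas1, Enpp6, Tcf7l2 and Itpr2. Each of the 10 was found among the 55453 gene symbols of the expression table, and all 10 passed the filter of a mean TPM of at least 1, which 16265 genes passed. TPM (transcripts per 1000000 transcripts) is a level scaled to transcript length and library total, so levels of different genes can be compared. The question was which stage of the lineage, if any, differed between mutants and controls and between the ages.

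All 17 mice were male, on the C57BL/6J background, and gave bulk cortex from which total RNA was sequenced. The 8-week groups were hemizygous Hnrnph2 KO mice (n = 3) with wild-type KO controls (n = 3), and hemizygous Hnrnph2 R206W mice (n = 3) with wild-type R206W controls (n = 3). The 3-week groups were hemizygous Hnrnph2 P209L mice (n = 3) with wild-type P209L controls (n = 2). The series' design states 3 mice per group, and the third P209L control was not analysed here. R206W and P209L are substitutions of the human disorder placed in the mouse gene, and the KO line carries a small insertion or deletion that shifts the reading frame and leads to decay of the mRNA. Controls were littermates, so age and line cannot be told apart: the only 3-week mice came from the P209L line. Hnrnph2 itself was at 21.3 to 24.4 TPM in the KO mice and 80.5 to 145 TPM in their controls.

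Oligodendrocytes, the cells that wrap axons in myelin, arise from dividing precursors that persist in the adult cortex. Precursors carry the receptor for platelet-derived growth factor encoded by Pdgfra and the proteoglycan NG2 encoded by Cspg4. Cells that leave this state lose both and pass through a committed stage marked by the receptor Gpr17, then a newly formed stage marked by Bcas1, Enpp6, Tcf7l2 and Itpr2, before they produce myelin proteins. Olig1, Olig2 and Sox10 encode transcription factors that are used through the whole lineage. Several of the genes are also read outside it: Pdgfra in leptomeningeal fibroblasts, Cspg4 in pericytes, Itpr2 in astrocytes and Tcf7l2 in thalamic neurons. In bulk tissue, fewer cells of a type and less RNA per cell cannot be told apart.

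A pair of libraries stood apart. P209L control 2 held 1776 TPM over 5 choroid plexus genes, against 4.32 to 27.9 TPM in the other 16 libraries, with Ttr, which encodes the thyroid hormone carrier of that tissue, at 1740 TPM. It also held the highest sum over 14 mature myelin genes, 6432 TPM against 2613 to 4320 TPM elsewhere. Both P209L controls held more striated muscle transcripts (108.5 to 113.6 TPM over 6 genes) than the other mice (44.7 to 60.8 TPM). KO control 1 had the largest share of mitochondrial transcripts, 20.1% against 10.7 to 15.4%, and was the lowest of its group for 9 of the 10 genes. The differences that these mice moved most are therefore given with and without them, and the part of these tissues in the results was not tested.

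Promoter sequences are shown for Cspg4 and Enpp6, the genes with a matched window among the 3 called between the ages, and for Tcf7l2, the only matched gene whose window held a searched motif. RefSeq windows (build GRCm38.p6) of 250 bases before to 50 after the start were found for 6 of the 10 genes: Pdgfra, Cspg4, Olig2, Enpp6, Itpr2 and Tcf7l2, which had 2 windows. Each is written 5′ to 3′ on the + strand, with a motif match in capitals.
Cspg4, chr9:56864854-56865153: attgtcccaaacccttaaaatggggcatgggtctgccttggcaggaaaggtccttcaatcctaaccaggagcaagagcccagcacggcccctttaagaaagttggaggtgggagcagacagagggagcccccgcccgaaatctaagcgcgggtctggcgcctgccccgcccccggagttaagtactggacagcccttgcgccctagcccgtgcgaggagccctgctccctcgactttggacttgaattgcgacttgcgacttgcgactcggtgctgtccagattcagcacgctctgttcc
Enpp6, chr8:46986637-46986936: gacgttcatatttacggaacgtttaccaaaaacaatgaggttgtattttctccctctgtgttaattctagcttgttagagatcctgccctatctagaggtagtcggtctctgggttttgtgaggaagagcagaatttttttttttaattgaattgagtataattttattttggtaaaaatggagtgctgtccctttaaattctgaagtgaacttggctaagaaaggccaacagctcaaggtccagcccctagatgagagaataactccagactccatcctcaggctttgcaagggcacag
Tcf7l2, internal start, chr19:55895071-55895370: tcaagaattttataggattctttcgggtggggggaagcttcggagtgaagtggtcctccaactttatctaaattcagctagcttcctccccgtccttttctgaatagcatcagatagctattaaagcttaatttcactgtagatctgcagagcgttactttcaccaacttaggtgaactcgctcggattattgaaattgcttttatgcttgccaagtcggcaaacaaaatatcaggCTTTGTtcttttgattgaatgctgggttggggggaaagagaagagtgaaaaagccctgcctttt
Searched on both strands were ACAAAG for the SOX family, then ATCAAAG for the TCF/LEF family to which Tcf7l2 belongs, and CAGCTG as an E-box, the kind of site bound by basic helix-loop-helix factors. The first was present in 1 of 7 windows, on the opposite strand 14 bases before that start of Tcf7l2, and in 18.7% of 32851 promoters. The second was in 0 of 7 windows and 3.73% of promoters, and the third in 0 of 7 windows and 16.3% of promoters. The printed windows differed in base composition, with 60% G and C for Cspg4, 40.3% for Enpp6 and 42% for Tcf7l2, against a median of 52.7% over all promoters. Pdgfra lies on chromosome 5, Itpr2 on 6, Sox10 on 15 and Bcas1 on 2, while Olig1 (91269772 to 91271933) and Olig2 (91225457 to 91228677) are neighbours on chromosome 16.

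Over all 17 mice, the highest mean level was that of Bcas1 (73.7 TPM), followed by Olig1 (48.1 TPM), Gpr17 (23.0 TPM), Sox10 (15 TPM), Pdgfra (14.6 TPM) and Olig2 (9.44 TPM). Cspg4 (5.69 TPM), Enpp6 (5.35 TPM), Itpr2 (4.70 TPM) and Tcf7l2 (2.10 TPM) followed at lower levels. The ranges over the 17 mice overlapped for every pair of neighbours in this order. Sox10, at 8.59 to 20.9 TPM, and Pdgfra, at 8.87 to 18.7 TPM, overlapped almost throughout. The plot of levels by mouse shows each gene over the 6 groups.

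**Figure D1:**
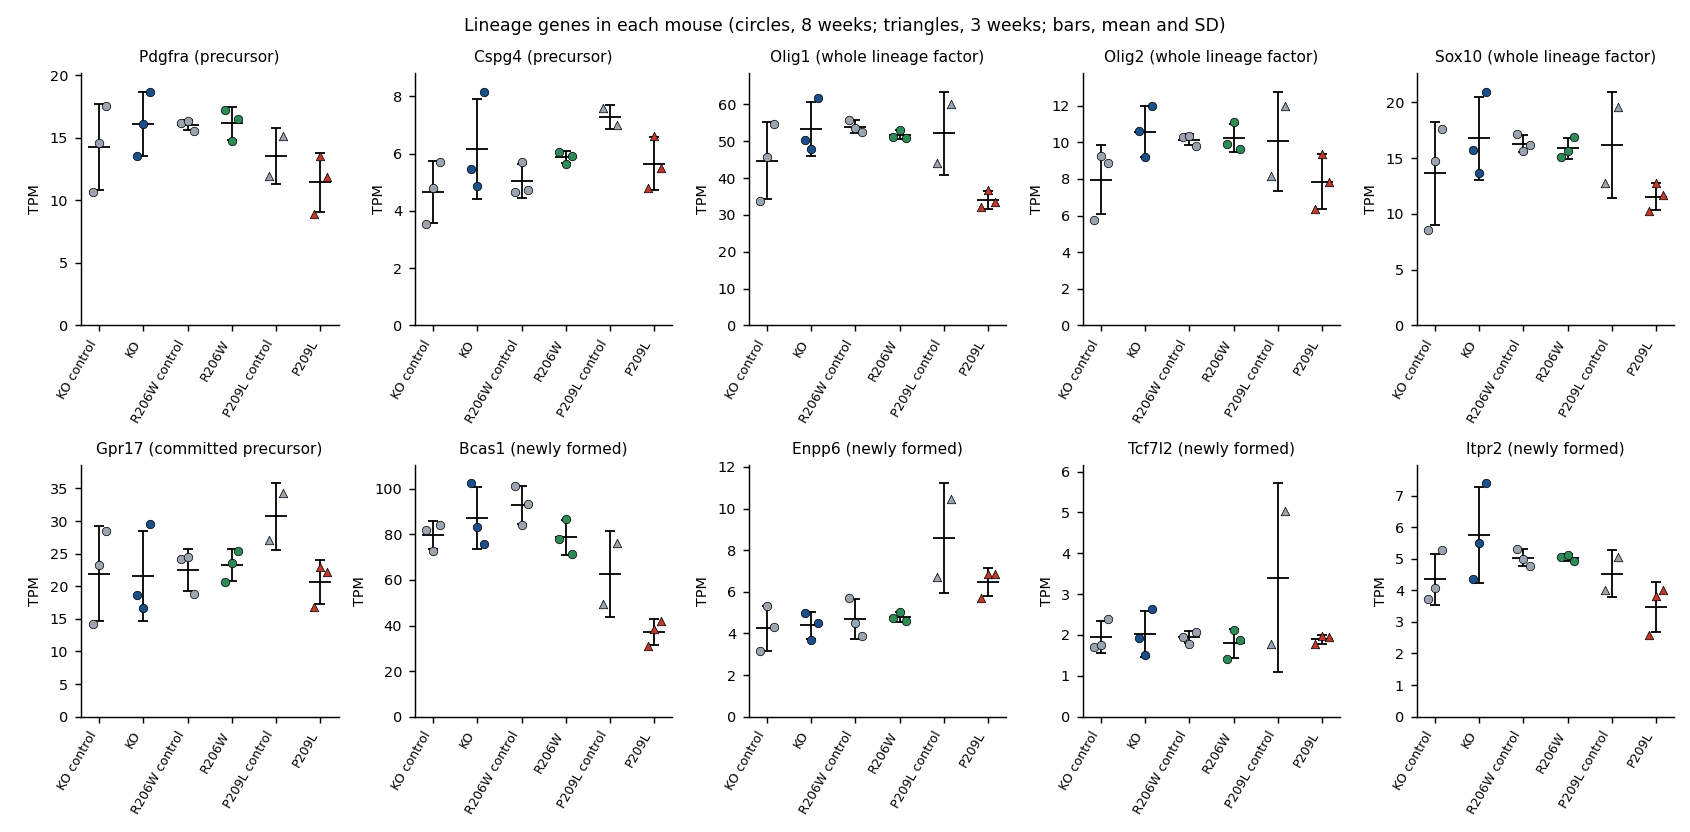
TPM of each of the 10 genes (y axis, from 0) in the 6 groups (x axis), with 1 point per mouse and bars for the mean and SD. In P209L mice, Olig1 lay at 32.1 to 36.8 TPM and Bcas1 at 31.1 to 42.2 TPM, below both P209L controls, and 1 P209L control stood apart for Tcf7l2 at 5.04 TPM.

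In P209L cortex, all 10 genes had lower means than in the P209L controls, but none passed the adjusted threshold. The size of the shift depended on which of the 2 control mice was kept. The median difference in log2(TPM + 1) was -0.38 over the 10 genes and 0.016 over all genes tested. All 10 also lay on 1 side of 0 between the wild-type KO and R206W controls (median 0.18, against 0.13 over all genes). That comparison includes KO control 1, and its median over all genes was -0.002 after rescaling by size factors. Under limma with Benjamini-Hochberg adjustment over all genes, 0 of the 10 passed 0.05, where 0.0984% of all genes did. At an unadjusted p under 0.05 with a difference beyond 0.5, a rule that 2.67% of all genes met, 2 of the 10 were called, Bcas1 and Olig1, both lower. For 5 of the 10 (Bcas1, Cspg4, Gpr17, Olig1 and Sox10) every P209L mouse lay below both controls, as did 10.7% of all genes.

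Bcas1 encodes a protein of newly formed, early myelinating oligodendrocytes. It was at 49.3 and 76.1 TPM in the P209L controls and at 31.1, 38.6 and 42.2 TPM in the P209L mice. The groups did not overlap, and the gap between the 2 controls was wider than that between the lower control and the highest mutant. The difference was -0.71 (SE 0.181, 95% CI -1.10 to -0.33, adjusted p = 0.2117, limma), a mean of 59.5% of the control mean. Without P209L control 2 it was -0.40, and without P209L control 1 it was -1.02 (adjusted p = 0.05832).

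Olig1, a basic helix-loop-helix factor needed for maturation and remyelination, was at 44.2 and 60.1 TPM in the P209L controls and at 32.1, 36.8 and 33.5 TPM in the P209L mice. All P209L mice were below both controls, and the spread among mutants (SD 2.45 TPM) was smaller than that between controls (SD 11.3 TPM). The difference was -0.58 (SE 0.173, adjusted p = 0.3237), and -0.36 without P209L control 2. Its partner Olig2, the factor that specifies the lineage, was at 8.15 and 11.97 TPM in controls and 6.36, 9.35 and 7.84 TPM in P209L mice, and the groups overlapped. Its difference was -0.31 (adjusted p = 0.8053), and -0.06 without P209L control 2. Sox10, which drives myelin genes, differed by -0.43 (adjusted p = 0.7524), or -0.14 without that control.

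Gpr17, the receptor of the committed stage, was at 27.1 and 34.3 TPM in the P209L controls and 16.8, 23.0 and 22.2 TPM in the P209L mice. Every mutant lay below both controls, with a difference of -0.55 (95% CI -1.10 to 0.0016, adjusted p = 0.6701) that was -0.39 without P209L control 2. Among the precursor genes, Cspg4 was at 7.58 and 6.99 TPM in controls and 4.81, 6.63 and 5.51 TPM in P209L mice. These groups did not overlap either, and the Cspg4 difference of -0.33 (adjusted p = 0.7800) was larger, not smaller, without P209L control 2 (-0.38). Pdgfra overlapped between controls (11.9 and 15.1 TPM) and P209L mice (8.87, 13.6 and 11.9 TPM), with a difference of -0.23 (adjusted p = 0.8849), or -0.07 without P209L control 2.

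Both precursor genes are shared with vascular and meningeal cells whose markers were also lower. All 10 leptomeningeal fibroblast genes had lower means in P209L mice (median log2 difference -0.56, 0 past the adjusted threshold, 4 by the unadjusted rule and 2 without P209L control 2), led by Igf2 and Islr, and their sum was 52.6 to 78.4 TPM against 94.5 to 107 TPM in P209L controls. All 8 pericyte genes were likewise below 0 (median -0.27, 0 adjusted, 1 by the unadjusted rule and 0 without P209L control 2, Vtn and Kcnj8 leading), with sums of 72.5 to 88.6 TPM against 92.8 to 114 TPM. No gene of either list was at 0 in every library. Their part in the Pdgfra and Cspg4 values was not tested.

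Enpp6, an ectoenzyme that is a marker of newly forming oligodendrocytes, was at 6.73 and 10.5 TPM in the P209L controls and 5.70, 6.85 and 6.84 TPM in P209L mice. The lower control sat among the mutants, and the difference of -0.34 (adjusted p = 0.7789) was -0.05 without P209L control 2. Tcf7l2, a transcription factor of the Wnt pathway that is raised during differentiation, was at 1.77 and 5.04 TPM in controls and 1.77, 1.97 and 1.94 TPM in mutants. The value of 5.04 TPM came from the mouse with the choroid plexus transcripts and lay above the 1.41 to 2.63 TPM of the other 16 mice. Accordingly the Tcf7l2 difference of -0.50 (adjusted p = 0.7001) became 0.06 without it. The sum of 6 thalamic genes in that library was 64.6 TPM, against 42.9 to 65.8 TPM in the others. Among mice of 3 weeks it was the highest, with 62.8 TPM in P209L control 1 and 53.2 to 62.1 TPM in P209L mice. The source of the Tcf7l2 transcripts in that library was not tested. Itpr2, an intracellular calcium release channel, was at 4.01 and 5.05 TPM in controls and 2.57, 3.82 and 4.02 TPM in mutants, with overlap and a difference of -0.32 (adjusted p = 0.7869), or -0.18 without P209L control 2.

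**Figure D2:**
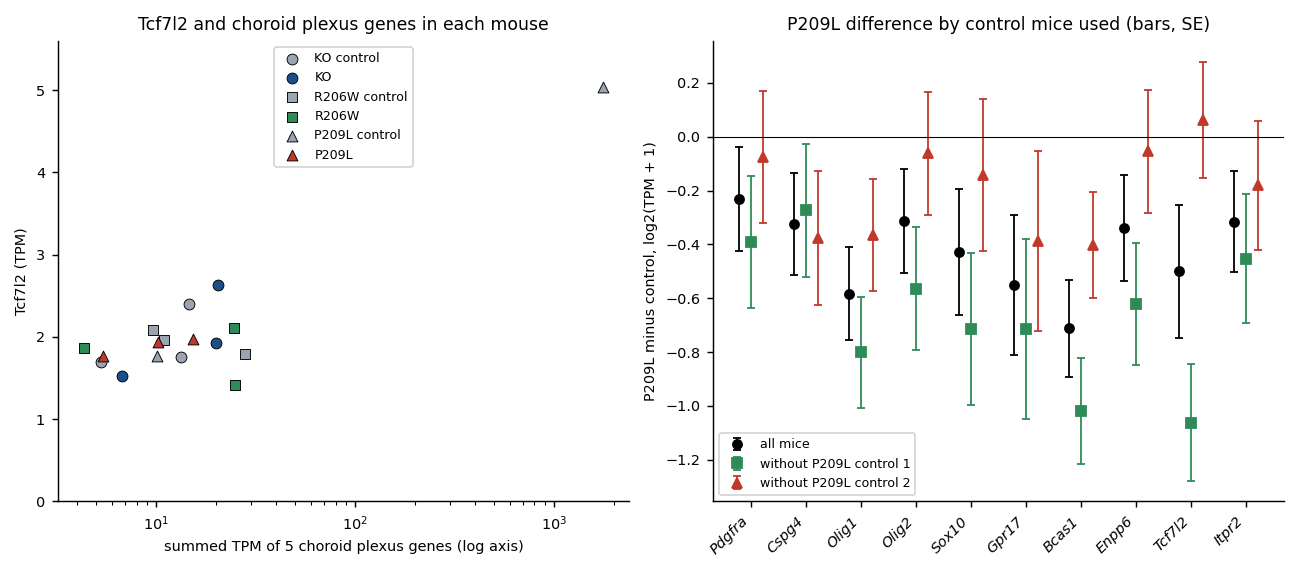
Left, Tcf7l2 in TPM (y axis) against the summed TPM of 5 choroid plexus genes (x axis, log scale), with 1 point per mouse; P209L control 2 lies alone at 1776 and 5.04 TPM. Right, the P209L minus control difference in log2(TPM + 1) with SE bars for each gene with all mice, without P209L control 1 and without P209L control 2; the median over the 10 genes was -0.38, -0.67 and -0.16.

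With P209L control 2 left out, 9 of the 10 genes stayed below 0, the median was -0.16, and 0 of 10 met either rule. With P209L control 1 left out instead, 10 of 10 were below 0, the median was -0.67, and 7 of 10 met the unadjusted rule while 0 met the adjusted threshold. The 2 controls thus set the median between these values, as the plot by control mouse shows. With 2 controls, a gene's difference with all mice lies midway between its leave-out values, which cannot show which control is typical. Without P209L control 1 the difference was -0.80 for Olig1, -0.57 for Olig2, -0.72 for Sox10, -0.72 for Gpr17 and -0.39 for Pdgfra. For Cspg4 it was -0.27, for Enpp6 -0.62, for Tcf7l2 -1.06 and for Itpr2 -0.45.

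Set out by stage, the P209L median was -0.28 for the 2 precursor genes, -0.43 for the 3 lineage factors, -0.55 for Gpr17 and -0.42 for the 4 newly formed genes. Without P209L control 2 these were -0.23, -0.14, -0.39 and -0.12. Without P209L control 1 they were -0.33, -0.72, -0.72 and -0.82, so the order of the stages changed with the control used. Further genes of the same stages had medians nearer to 0: 12 other precursor genes had a median of -0.08 (8 of 12 below 0, 0 called by either rule) and 9 of 10 other newly formed genes that were tested had a median of -0.15 (8 of 9 below 0, 0 called). Among the precursor genes, Cacng4 (-0.41, adjusted p = 0.5651) and Neu4 (-0.46, adjusted p = 0.7001) had the smallest p. Rras2 (-0.31, adjusted p = 0.6100) and Cnksr3 (-0.36, adjusted p = 0.7251) had the smallest among the newly formed genes. Neu4 was at -0.27 and Cnksr3 at -0.13 without P209L control 2.

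Mature myelin genes had the lowest median of the stages. All 14 were below 0 in P209L cortex, with a median of -0.77, although 0 passed the adjusted threshold. The unadjusted rule was met by 12 of them and by 2.67% of all genes. For 13 every P209L mouse lay below both controls, as for 10.7% of all genes. Opalin, a membrane protein of myelinating oligodendrocytes, had a difference of -0.96 (adjusted p = 0.08445), and Mog, found on the outer surface of myelin, one of -0.81 (adjusted p = 0.1405). Without P209L control 2 the myelin median was -0.54 with 13 of 14 below 0, and 6 met the unadjusted rule, 5 of them lower. The myelin median was -1.035 without P209L control 1. The difference between the stages was not itself tested.

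**Figure D3:**
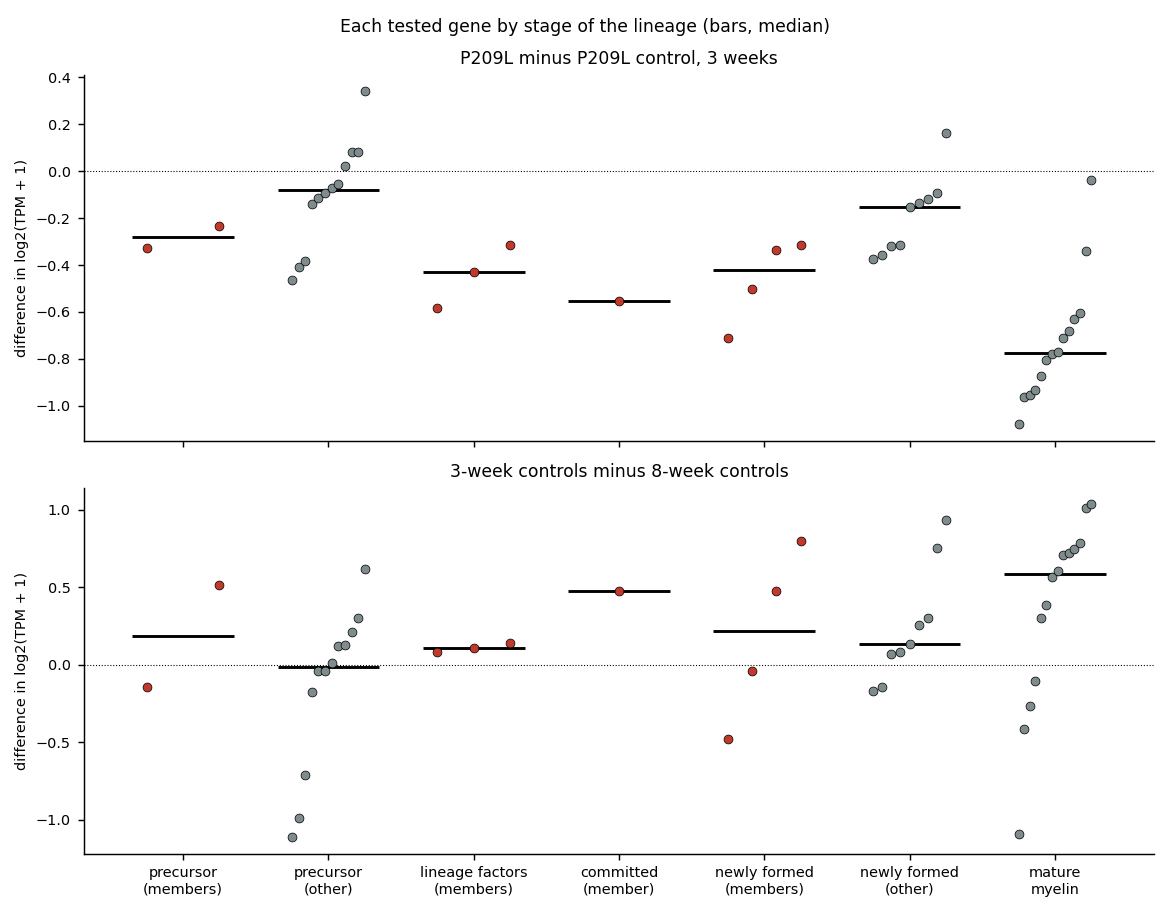
Difference in log2(TPM + 1) (y axis) for each tested gene, by stage of the lineage from precursor to mature myelin (x axis), for P209L against P209L controls (top) and 3-week against 8-week controls (bottom); bars are medians, and the 10 genes chosen by name are in red. In P209L mice the medians did not fall in order along the axis. They were -0.28 for the chosen and -0.08 for the other precursor genes, -0.43 for the lineage factors and -0.55 for Gpr17. For the chosen and other newly formed genes they were -0.42 and -0.15, and for mature myelin genes -0.77. Without P209L control 2 they were -0.07 for other precursor genes and -0.54 for mature myelin genes.

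Regulators and signalling partners of the 10 genes were read from further lists. Of 12 regulators of the lineage, 10 were below 0 in P209L mice (median -0.16), 0 passed the adjusted threshold and 2 met the unadjusted rule: Nkx6-2 (-0.84, adjusted p = 0.2126) and Myrf (-0.58, adjusted p = 0.6033), both active in myelinating cells. Myrf was at -0.25 and no longer met the rule without P209L control 2, while Nkx6-2 was at -0.66 and did. Of 10 partners of Pdgfra, Tcf7l2 and Itpr2 (the growth factor ligands, the Wnt pathway and the related calcium channels), 9 were tested, 5 were below 0 (median -0.09) and 0 met either rule. Tcf7 (-0.27, adjusted p = 0.8539) and Tcf7l1 (-0.14, adjusted p = 0.9364) had the smallest p. The ligand Pdgfa was at a mean of 34.8 TPM in controls and 32.8 TPM in P209L mice.

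In R206W cortex at 8 weeks the differences lay on both sides of 0. The median was 0.005, with 4 genes below 0 and 6 above, and single differences ran from -0.24 (Bcas1) to 0.19 (Cspg4). Under limma, 0 of 10 passed the adjusted threshold, where 0.0369% of all genes did, 0 of 10 had an unadjusted p under 0.05, and 0 met the unadjusted rule, which 0.584% of all genes met. In 0 of 10 did every R206W mouse lie below every control, as in 8.11% of all genes, or above, as in 8.09%. Bcas1 was at 101, 84.3 and 93.5 TPM in the R206W controls and 77.9, 86.8 and 71.3 TPM in R206W mice, and the groups overlapped (95% CI of the difference -0.58 to 0.10). Olig1 was at 55.9, 53.5 and 52.5 TPM in controls and 51.2, 53.2 and 50.9 TPM in R206W mice, with an interval of -0.39 to 0.27. Pdgfra means were 16.0 TPM ± 0.436 in controls and 16.1 TPM ± 1.30 in R206W mice (SD, n = 3 each). Other precursor genes had a median of 0.07, other newly formed genes 0.03 and mature myelin genes -0.13 (13 of 14 below 0), with 0 genes of any list past the adjusted threshold.

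KO cortex at 8 weeks had higher means for 9 of the 10 genes, without a call. The median difference was 0.22 against 0.064 over all genes, and it was 0.15, with 7 of 10 above 0, after rescaling by size factors and 0.06, with 6 of 10 above 0, without KO control 1. Under limma, 0 of 10 passed the adjusted threshold, where 0.00615% of all genes did. The unadjusted rule called 0 of 10 and 0.867% of all genes, and in 0 of 10 did all KO mice lie above all controls, as in 5.43% of all genes, or below them, as in 0.824%. Olig2 had the smallest p: it was at 5.78, 9.23 and 8.86 TPM in KO controls and 10.6, 9.19 and 11.97 TPM in KO mice. Those groups overlapped, and the difference was 0.39 (95% CI 0.02 to 0.75, adjusted p = 0.9986). The low value, 5.78 TPM, was that of KO control 1, without which the difference was 0.20. Gpr17 alone was below 0, at -0.01 (95% CI -0.50 to 0.49), with 14.1, 23.2 and 28.4 TPM in controls and 18.6, 16.7 and 29.5 TPM in KO mice. Medians were 0.10 for other precursor genes, 0.05 for other newly formed genes and 0.16 for mature myelin genes, with 0 genes of any list past the adjusted threshold.

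The effects of the alleles were then compared with each other. With all mice, the P209L effect was below the KO effect for all 10 genes (median difference of effects -0.65, against -0.05 over all genes). The unadjusted rule was met by 6 (Bcas1, Cspg4, Itpr2, Olig1, Olig2 and Sox10), against 5.79% of all genes. None of the 10 passed the adjusted threshold, where 0.0492% of all genes did. The largest was Olig1, at -0.85 (95% CI -1.34 to -0.36, adjusted p = 0.3304), and Bcas1 was at -0.83 (adjusted p = 0.3744). Without P209L control 2, without KO 3 and without P209L 1 in turn, 3 met the unadjusted rule. Against R206W, with all mice, the P209L effect was also lower for all 10 genes (median -0.41, against 0.003 over all genes). Only Olig1 met the unadjusted rule there, at -0.52 (95% CI -1.02 to -0.03, adjusted p = 0.9996, limma), against 2.35% of all genes. For that contrast limma called 0 of 10 genes and 0% of all genes with adjustment, with 647 of all genes at an unadjusted p under 0.05. Olig1 was no longer called in that contrast without P209L control 2, P209L 1, R206W control 3 or any single R206W mouse, while without P209L control 1 the rule called 4 genes and without P209L 2 it called 2. KO and R206W effects were called different for 0 of 10 genes, where 0.0307% of all genes passed, and 0 of 10 had an unadjusted p under 0.05. Since the P209L mice were 3 weeks old and the others 8 weeks, age and allele cannot be told apart in the first 2 of these contrasts. Both also shrink without P209L control 2, where the P209L median was -0.16, beside 0.005 for R206W and 0.22 for KO. The Tcf7l2 effect of P209L was then 0.06, above the -0.08 of R206W and the 0.03 of KO, so not all 10 stayed lower.

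**Figure D4:**
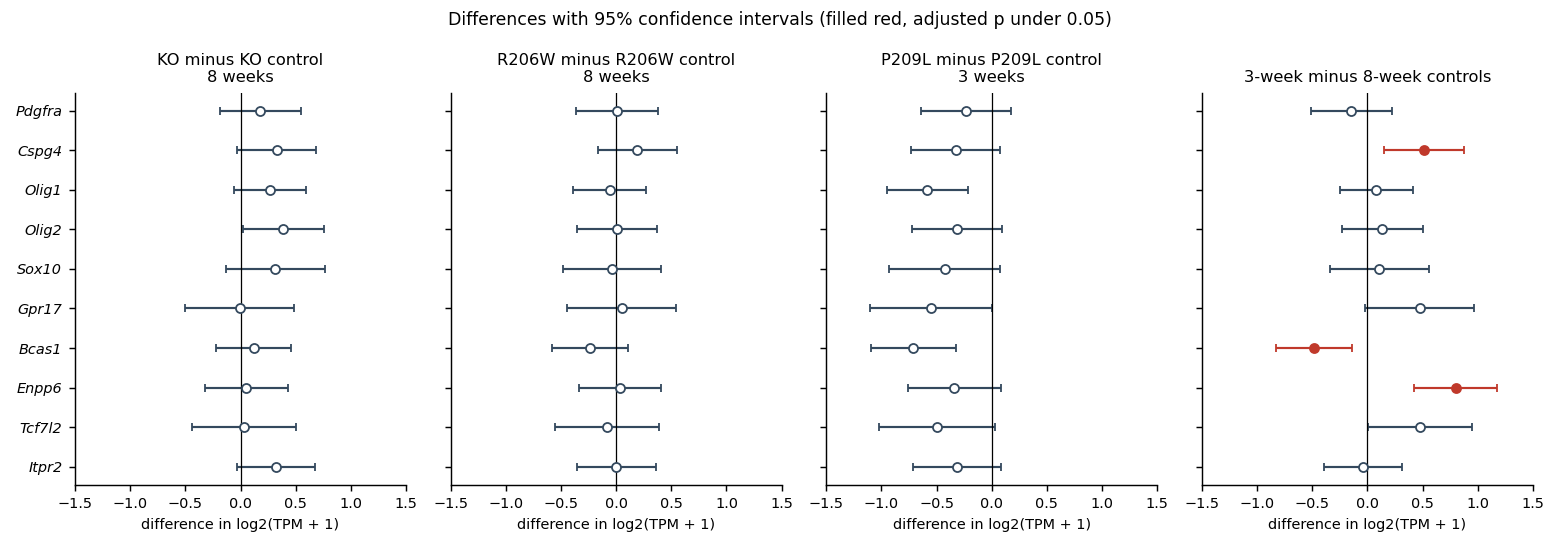
Difference in log2(TPM + 1) with 95% confidence intervals (x axis) for each of the 10 genes (y axis) in KO, R206W and P209L mice against their own controls and in 3-week against 8-week controls. Filled red points, Enpp6, Cspg4 and Bcas1 between the ages, had an adjusted p under 0.05, and all 10 P209L points lie below 0.

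Between wild-type controls of 3 and 8 weeks, Enpp6 and Cspg4 were higher and Bcas1 lower at 3 weeks. The calls split within a stage as listed here, since Enpp6 and Bcas1 were both placed among the newly formed genes. Pdgfra, the other precursor gene, was not called. Stage medians were 0.18 for the precursor genes, 0.11 for the lineage factors, 0.47 for Gpr17 and 0.22 for the newly formed genes, and 0.13, -0.14, 0.31 and -0.13 without P209L control 2. The difference between stages was not tested. The 2 controls of the P209L line were compared with the mean of the KO and R206W controls (n = 6). By the adjusted threshold 3 of 10 genes were called (1 without P209L control 2, Bcas1, and 1 without R206W control 1, Enpp6), where 36.1% of all genes were, so the count itself is near the background. The unadjusted rule called 2 of 10, Enpp6 and Cspg4, and 27.2% of all genes; it called 1, Enpp6, without KO control 1, R206W control 1 or R206W control 3 in turn, and 4 without KO control 3. The median over all genes was -0.12 on the log2 scale, and -0.02 after rescaling by size factors. The KO and R206W controls, both of 8 weeks, gave 0 called genes of 10 and 0% of all genes with limma and adjustment. At an unadjusted p under 0.05 were 0 of 10 and 507 of all genes. All 10 had higher means in the R206W controls (median 0.18, against 0.13 over all genes). The KO controls include KO control 1, and the median over all genes was -0.002 after rescaling by size factors. For 2 of them every R206W control lay above every KO control, as for 8.43% of all genes.

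Enpp6 was at 6.73 and 10.5 TPM at 3 weeks, and at 3.15, 5.30, 4.31, 5.72, 4.51 and 3.86 TPM in the 6 controls of 8 weeks. Both young mice were above all 6 older ones, as held for 16.7% of all genes. The 3-week mean was 192% of the 8-week mean, with a difference of 0.80 (SE 0.176, adjusted p = 0.002937), or 0.90 after rescaling by size factors. Without P209L control 2 it was 0.52 (adjusted p = 0.1082). The 3 P209L mice, also 3 weeks old, lay at 5.70 to 6.85 TPM, beside a maximum of 5.72 TPM among all 12 mice of 8 weeks.

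Cspg4 was at 7.58 and 6.99 TPM at 3 weeks, and its 8-week controls had a lowest value of 3.54, a median of 4.77 and a highest value of 5.72 TPM. The groups did not overlap, the 3-week mean was 150% of the 8-week mean, and the difference was 0.51 (adjusted p = 0.02853). It was 0.56 without P209L control 2 (adjusted p = 0.1074), 0.46 without P209L control 1 (adjusted p = 0.1794) and 0.49 without R206W control 1 (adjusted p = 0.05172). Pdgfra, the other precursor gene, differed by -0.15 (95% CI -0.51 to 0.22).

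Bcas1, in contrast, was at 49.3 and 76.1 TPM at 3 weeks against a lowest value of 72.9, a median of 84.3 and a highest value of 101 TPM in the 8-week controls. P209L control 2 was within the older range and P209L control 1 was below it. No member had both young controls below all older ones, as 21.5% of all genes did. The difference of -0.48 (adjusted p = 0.02990) was -0.79 without P209L control 2 (adjusted p = 0.01191), -0.17 without P209L control 1 (adjusted p = 0.5426) and -0.45 without R206W control 1 (adjusted p = 0.05660), and it was -0.37 after rescaling by size factors (adjusted p = 0.09050). Gpr17 had a difference of 0.47 (adjusted p = 0.1241), and passed after rescaling by size factors (0.58), as did Tcf7l2 (0.56). Tcf7l2 had a difference of 0.48 (adjusted p = 0.1036), which was -0.08 without P209L control 2 and 1.04 without P209L control 1 (adjusted p = 0.004276). Olig1, Olig2 and Sox10 lay at 0.08, 0.14 and 0.11 with all mice, at -0.14, -0.12 and -0.18 without P209L control 2, and at 0.30, 0.39 and 0.40 without P209L control 1, so their direction turned with the control used. Itpr2 lay at -0.04. None of these 4 passed the adjusted threshold in these 3 settings.

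Other genes of the stages differed in both directions between the ages. By the adjusted threshold 36.1% of all genes were called there, and the counts below are to be read beside that share. Of 12 other precursor genes, 3 were lower at 3 weeks and 1 higher by the adjusted threshold: Ptprz1 (-0.99), Xylt1 (-1.11) and Sox6 (-0.71) were lower and Neu4 (0.62) higher. Neu4 was not called without either P209L control in turn (0.42 without the second and 0.81 without the first). Of 9 other newly formed genes, 2 were higher, Rras2 (0.93) and Prom1 (0.75), the latter not called without P209L control 2 (0.73, adjusted p = 0.05891). Of 14 mature myelin genes, 8 were higher and 1 lower (median 0.58), with Mog (1.03) and Opalin (1.01) higher and Hapln2 (-1.09) lower. Without P209L control 2, the library with the highest myelin sum, 3 of the 14 were called and the median was 0.35. Hapln2 was not called without P209L control 1 (-0.52). Of 12 lineage regulators, 4 were lower and 1 higher: Zfp24 (-0.75), Id4 (-0.60) and Zfp536 (-0.68) were lower, and Hes5 (0.85), a Notch target, was higher. Hes5 was at 0.46 and not called without P209L control 2, and Zfp536 at -0.52 and not called without P209L control 1. Among the partners, Itpr1, the calcium channel related to Itpr2 and abundant in neurons, was at a mean of 40.6 TPM at 3 weeks and 205.8 TPM at 8 weeks (-2.28, adjusted p = 7.772e-06). Ctnnb1, which encodes the β-catenin that Tcf7l2 binds, was higher at 3 weeks (0.52, adjusted p = 0.003909), but not called without P209L control 1 (0.43).

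Ratios of a pair of genes within a mouse do not depend on the library's scale. Between the ages 5 of them, chosen after the values were seen, were compared, with mutants and controls pooled at each age. In 3 the ages did not overlap. Bcas1 was 5.45 to 7.32 times the level of Enpp6 in the 5 mice of 3 weeks and 13.7 to 26.1 times in the 12 mice of 8 weeks, with no overlap. The ratio of Enpp6 to Pdgfra was 0.506 to 0.692 at 3 weeks and 0.229 to 0.368 at 8 weeks, and that of Gpr17 to Pdgfra 1.70 to 2.28 and 1.04 to 1.62. The other 2 overlapped, with Bcas1 to Pdgfra at 2.85 to 5.04 and 4.08 to 7.70, and Olig1 to Pdgfra at 2.72 to 3.98 and 2.98 to 3.73. Between P209L mice and their controls, Gpr17 to Pdgfra was 1.90, 1.70 and 1.87 in the mutants and 2.28 and 2.27 in the controls. The Bcas1 to Enpp6 ratio was 5.75 ± 0.371 in P209L mice (SD, n = 3) and 7.30 ± 0.0239 in controls (SD, n = 2). Enpp6 to Pdgfra overlapped, at 0.643, 0.506 and 0.576 in the mutants and 0.565 and 0.692 in the controls. Bcas1 to Pdgfra was 3.50, 2.85 and 3.55 in the mutants and 4.13 and 5.04 in the controls. Olig1 to Pdgfra was 3.61, 2.72 and 2.82 in the mutants and 3.70 and 3.98 in the controls. These ratios are given as values and were not tested.

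The 10 genes varied together from mouse to mouse only in part. Over 45 pairs and 17 mice, Pearson r of log2(TPM + 1) ran from -0.44 to 0.936 with a median of 0.533. After subtraction of group means it ran from -0.21 to 0.976 with a median of 0.693. The r of -0.44 was that of Bcas1 and Enpp6, both placed among the newly formed genes. After subtraction of group means it was 0.527 for that pair. The genes of a mouse share 1 library and its scale, so these values are descriptive. Among all tested genes, those most like Pdgfra were Lrsam1 (r = 0.966, 0.961 after subtraction of group means), Akap1 (0.956 and 0.913) and Ephx1 (0.953 and 0.936). Those most like Gpr17 were Tspan33 (0.960 and 0.961), Fxyd7 (0.921 and 0.936) and Reep2 (0.905 and 0.918). Those most like Enpp6 were Gal3st1 (0.936 and 0.885), Slc31a1 (0.922 and 0.749) and Kif19a (0.902 and 0.788). Of these, Gal3st1 encodes the enzyme that makes the myelin lipid sulfatide.

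Markers of other cells in the P209L comparison were read beside these values. Endothelial genes were below 0 for 6 of 6 (median -0.30) and microglial genes for 5 of 6 (median -0.11), while astrocyte genes (median 0.04) and neuronal genes (median -0.02) were each below 0 for 3 of 6, and thalamic genes for 4 of 5 tested (median -0.11). The endothelial median was -0.10 and the microglial median 0.03 without P209L control 2. None of these 5 lists had a gene past the adjusted threshold. Choroid plexus genes were below 0 for 3 of 3 tested (median -1.38, and 0.16 without P209L control 2). Of these, Folr1 passed the filter on low values only through that library, with a mean of 0.835 TPM in the other 16. Of 4 striated muscle genes tested 2 were lower by the adjusted threshold, Myh7 and Tnnc1, and neither passed it without P209L control 1 or without P209L control 2. Between the ages, where 36.1% of all genes passed, the adjusted threshold was passed by 3 of 6 astrocyte and 3 of 6 neuronal genes, all lower at 3 weeks. It was passed by 4 of 6 microglial genes (3 lower), 3 of 6 endothelial genes (2 lower) and 3 of 5 thalamic genes (2 lower). It was also passed by 1 of 10 leptomeningeal genes and 1 of 8 pericyte genes, both lower, and by 1 of 3 choroid plexus and 1 of 4 striated muscle genes, both higher. Leaving out P209L control 2, the counts were 2 astrocyte, 1 neuronal, 3 microglial, 0 endothelial, 1 thalamic and 0 choroid plexus genes, and leaving out P209L control 1 they were 2, 1, 1, 0, 1 and 3, in the same order. Their part in the differences of the 10 genes was not tested.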

How the data were processed

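RNA-Seq was performed on the cortex of 17 mice. The authors deposited 1 table of TPM values (a transcript's share, summing to 1000000 in each mouse) by gene symbol. The submitters' processing notes name Trim Galore, STAR 2.7.1a, GATK 4.0.4.0, RSEM and mm10; the annotation is not given in the sources used here. TPM keeps no depth, so depth is unknown and no counting interval is given. Genes and promoters were placed with GENCODE and RefSeq annotation of the same assembly.

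Rows that shared a symbol were summed (55573 rows, 55453 symbols), and values were analysed as log2(TPM + 1), a scale that understates changes of low genes. The 16265 genes whose mean reached a TPM of 1 were fitted with limma 3.58.1 (R 4.3.3), with a mean for each of 6 groups, a trend in the prior variance and two-sided tests. P values were adjusted by the Benjamini-Hochberg method over all genes, with a threshold of 0.05. A second, looser rule asked for p under 0.05 without adjustment and a difference beyond 0.5 on the log2 scale. The code was tested on simulated data. With 2 or 3 mice per group, p values measure the spread between these mice.

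The 10 genes and the lists were chosen with earlier results of these data known. All 10 were named. From each other lineage list, up to 4 genes past the adjusted threshold with the smallest p were named, or 2 where none passed, and the 3 genes most like Pdgfra, Gpr17 and Enpp6 were named; 1 gene so chosen is not reported here. Lists of other cells, and all lists in KO and R206W mice, are given mostly by counts and medians. Alternatives were a pseudocount of 0.1, all genes kept, genes kept from a mean of 5 TPM, size factors, removal of mitochondrial genes, sample weights, a replicate block, only the groups compared, and each mouse left out. Medians of lists under these settings were added after the data were seen.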

Additional observations from a re-analysis of the deposited data

How the results depend on the processing

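Of the differences of the 10 genes under all settings, 1194 passed the adjusted threshold both times or changed by less than the SE of the main difference. Another 62 moved by more and passed the threshold neither time. The adjusted threshold was lost by 10 and gained by 8, and 0 turned sign after a call. Between the ages, the adjusted threshold called 3 genes, but 1 without the filter on low values (where 33969 genes were tested) and 5 with sample weights, and 1 to 3 with a mouse left out. The unadjusted rule called 2 there, but 4 with size factors and 4 with the replicate block, and 1 to 4 with a mouse left out. For P209L against its controls it called 2, but 5 with the replicate block and 0 to 7 with a mouse left out (0 without P209L control 2, 7 without P209L control 1). For P209L minus KO it called 6, but 2 with sample weights and 3 with only the groups compared, and 3 to 8 with a mouse left out; sample weights also gave 2 adjusted calls, Bcas1 and Olig1. For P209L minus R206W it called 1, but 3 with size factors, 2 with mitochondrial genes removed, 3 with the replicate block and 3 with only the groups compared, and 0 to 4 with a mouse left out. For KO minus R206W it called 0, but 1 with sample weights. For KO it called 0 to 1 with a mouse left out (Sox10, without KO control 3). The cause of these shifts was not tested. Deviations from group means correlated between same-numbered mice at r of 0.117, -0.06 and 0.331 in the KO line. In the R206W line r was -0.03, -0.03 and -0.11, and in the P209L line 0.0814 and 0.00276. Deviations sum to 0 within groups of 2 or 3, so these values cannot show whether the numbers pair the mice. Sample weights, fitted gene by gene because the default estimate did not converge, ran down to 0.0819 for KO control 1. Where a lone P209L control is left, it is assumed to vary like the other groups. The small groups limit all of these values.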
